A study of Mus musculus with 9 samples.

Results

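The alpha tubulin genes were followed in testis RNA of mice injected with an inhibitor of KIFC1, a kinesin that cross-links and slides microtubules. They are the 8 rows of the count table that carry the symbols Tuba1a, Tuba1b, Tuba1c, Tuba3a, Tuba3b, Tuba4a, Tuba8 and Tubal3, out of 19991 genes. The members were named by gene family and not by a measured value, though with earlier results of these data known. Of them, 8 of 8 passed the filter on low counts, which left 15834 genes. There were 3 groups of 3 libraries: AZ82 (injected at 1 µM), CW069 (injected at 50 µM) and Control (injected with PBS). All mice were ICR, an outbred stock, aged 8 weeks. The labels name no genotype beyond the stock, no route of injection and no time after it, and they do not say whether each library came from its own animal. The p-values below therefore measure only the spread between these libraries, which may be technical.

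Alpha tubulin pairs with beta tubulin into the dimer that polymerises into microtubules. Mammals carry several alpha tubulin genes whose proteins, the isotypes, differ little over the body of the molecule and most in the acidic C-terminal tail, where enzymes add and remove glutamate, glycine and the last tyrosine. In testis, alpha tubulin builds the spindles of dividing germ cells, the manchette that surrounds the elongating spermatid nucleus and the axoneme of the sperm tail. Tuba3a and Tuba3b are the alpha tubulin genes known as testis isotypes in mouse. Tuba1a, Tuba1b and Tuba1c are used by many tissues, Tuba1a most in neurons; Tuba4a and Tuba8 are known from muscle, blood platelets or testis; and Tubal3 is a divergent member of the family.

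The coding ends show how the isotypes divide. Each line, for 7 of the 8 genes, gives the last 30 coding bases, stop codon included, of the longest GENCODE M21 protein-coding transcript (build GRCm38, an earlier build than the GRCm39 to which the reads were aligned), with the last codon before the stop in capitals.
Tuba3a coding end (chr6:125278358-125278387, minus strand): gcagaggcagaagaaggggaggagTACtga
Tuba3b coding end (chr6:145621358-145621387, plus strand): gcagaggcagaagaaggggaggagTACtga
Tuba1b coding end (chr15:98931582-98931611, minus strand): gagggggaggaagaaggagaggagTACtaa
Tuba1c coding end (chr15:99037980-99038009, plus strand): gaaggagacgatgagggtgaggaaTATtaa
Tuba4a coding end (chr1:75215622-75215651, minus strand): tatgaggacgaggatgagggagaaGAGtag
Tuba8 coding end (chr6:121226050-121226079, plus strand): gaagaagagaatgagggggaggaaTTTtaa
Tubal3 coding end (chr13:3933533-3933562, plus strand): gattatgaagaagtgggtctgagtTTCtga
The last codon encoded tyrosine in 5 genes, Tuba3a, Tuba3b, Tuba1a, Tuba1b and Tuba1c. It encoded glutamate in Tuba4a, an isotype that is made without the terminal tyrosine, and phenylalanine in Tuba8 and Tubal3. The Tuba3a and Tuba3b ends were identical letter for letter. Over their whole reading frames of 1353 bases these copies differed at 41 bases in 41 codons, and 41 of the 41 were synonymous, so both genes encode 1 protein. Tuba1a and Tuba1b differed at 23 bases, with 2 codons that changed the amino acid.

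Both testis copies lie on chromosome 6, with other genes between them, whereas Tuba1b, Tuba1a and Tuba1c follow each other on chromosome 15 with no other protein-coding gene between them in RefSeq's annotation. The upstream sequences of the testis copies are shown because these genes gave most of the alpha tubulin RNA. Each line holds the window around the annotated start that RefSeq gives on GRCm38.p6, with CCAAT in capitals.
Tuba3a promoter (chr6:125286032-125286331, minus strand): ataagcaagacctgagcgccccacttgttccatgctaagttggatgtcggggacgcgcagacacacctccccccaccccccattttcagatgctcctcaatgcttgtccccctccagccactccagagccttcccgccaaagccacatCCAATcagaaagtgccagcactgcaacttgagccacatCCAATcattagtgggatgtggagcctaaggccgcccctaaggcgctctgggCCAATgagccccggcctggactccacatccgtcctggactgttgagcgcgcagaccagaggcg
Tuba3b promoter (chr6:145615713-145616012, plus strand): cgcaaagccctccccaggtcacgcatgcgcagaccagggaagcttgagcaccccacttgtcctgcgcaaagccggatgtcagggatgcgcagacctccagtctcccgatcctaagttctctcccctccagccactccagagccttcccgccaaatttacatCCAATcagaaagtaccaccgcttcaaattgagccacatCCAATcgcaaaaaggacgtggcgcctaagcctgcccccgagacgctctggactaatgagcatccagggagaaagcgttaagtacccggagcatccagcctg
The letters CCAAT were searched on both strands, where the reverse reads ATTGG. They stood at -102, -64 and -13 from the start in Tuba3a and at -89 and -51 in Tuba3b. Among promoters of the same length, 38.6% of 15674 held CCAAT on either strand, and so did 4 of the 8 members, Tuba1a and Tuba1c being the others. The promoters of Tuba3a and Tuba3b were identical at 59.0% of aligned positions, with an unbroken shared run of 33 bases that 2 of the 15674 promoters held, these 2. The next most alike pair, Tuba1c and Tuba8, reached 47.9%. A match is a description of the letters and not a binding site.

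Copies this alike can share reads, and the counting by gene can then lose or misplace them. Of all windows of 100 bases along the transcript, 12.3% in Tuba3a and 11.8% in Tuba3b also occurred in a transcript of another gene, mainly in each other. The share was 65.1% in Tuba1a, 69.5% in Tuba1b and 53.4% in Tuba1c, which matched each other and several predicted genes, against 0.0% in Tuba4a, Tuba8 and Tubal3. Values of the 3 Tuba1 genes are therefore uncertain one by one. Read length is not given in the sources used here, and the share depends on it. With windows of 50 bases it was 33.6% in Tuba3a and 29.55% in Tuba3b, and with windows of 150 bases 2.65% and 2.21%.

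Totals ran from 13856070 to 18102593 counts per library. Germ cell markers were abundant in every library, as the tissue label says: 6 spermatocyte markers summed to 1704 to 1801 CPM (counts scaled to library size with TMM factors) after AZ82, 1538 to 1709.7 CPM after CW069 and 1510.3 to 1736 CPM in Control. Summed markers of Leydig cells and spermatogonia were lower than in Control after CW069 without overlap. Of all genes tested, 13.4% did not overlap between these groups. Summed markers of striated muscle were higher after AZ82 than in Control without overlap, where 15.3% of all genes did not overlap. The 6 Leydig cell markers summed to 1416 to 1724 CPM after AZ82, 1339 to 1384 CPM after CW069 and 1645 to 1764 CPM in Control. The 6 spermatogonia markers summed to 95.5 to 111 CPM after AZ82, 90.2 to 101 CPM after CW069 and 104 to 116 CPM in Control. As a mean of centred log2 levels, the spermatogonia markers overlapped, with CW069 2 at 0.043 and Control 3 at 0.037. The Leydig cell markers did not, with CW069 2 highest of its group at -0.19 and Control 1 lowest of Control at 0.13. The part of these markers in the results against Control was not tested. Of the cell types outside the testis that use these isotypes, 5 striated muscle markers summed to 2.45 to 3.06 CPM after AZ82, 1.71 to 1.99 CPM after CW069 and 1.86 to 2.28 CPM in Control, and Tnnt3 was at 0 in 4 of 9 libraries. The 4 neuronal markers summed to 37.3 to 42.1 CPM after AZ82, 39.4 to 42.0 CPM after CW069 and 35.6 to 39.7 CPM in Control, most of it Tubb3, and the synaptic gene Snap25 was at 0 in 6 of 9 libraries. Control 3 stood apart. Its 8 elongating spermatid markers, among them the protamines, summed to 5868 CPM, against 15557 and 13898 CPM in Control 1 and 2, 14236 to 17209 CPM after AZ82 and 11569 to 13545 CPM after CW069. In bulk testis RNA, fewer cells of a type and less RNA per cell cannot be told apart.

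The testis copies gave most of the alpha tubulin RNA in every library. CPM per kilobase of transcript allows for transcript length, but not for reads lost where genes share sequence. On this scale, Tuba3a ranged from 669 to 952 and Tuba3b from 668 to 913 over the 9 libraries. Tuba8 followed at 86.4 to 156, Tuba4a at 34.2 to 78.1, Tuba1a at 39.9 to 44.9, Tuba1c at 28.5 to 47.1, Tuba1b at 24.6 to 30.9 and Tubal3 at 0.420 to 0.577. Tuba3a and Tuba3b did not separate, since Tuba3a was the higher per kilobase in 4 of 9 libraries. The step from Tuba3b to Tuba8, a factor of 5.94 between means, and the steps from Tuba8 to Tuba4a (2.01) and from Tuba1b to Tubal3 (55.5) held without overlap over all libraries. Tuba4a exceeded Tuba1a per kilobase in 8 of 9 libraries, Control 3 being the exception, and Tuba1a exceeded Tuba1c in 8 of 9, AZ82 3 being the exception. Tuba1a shared 65.1% of its windows of 100 bases with other genes and Tuba4a 0.0%, so Tuba1a may stand too low in this order.

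**Figure D1:**
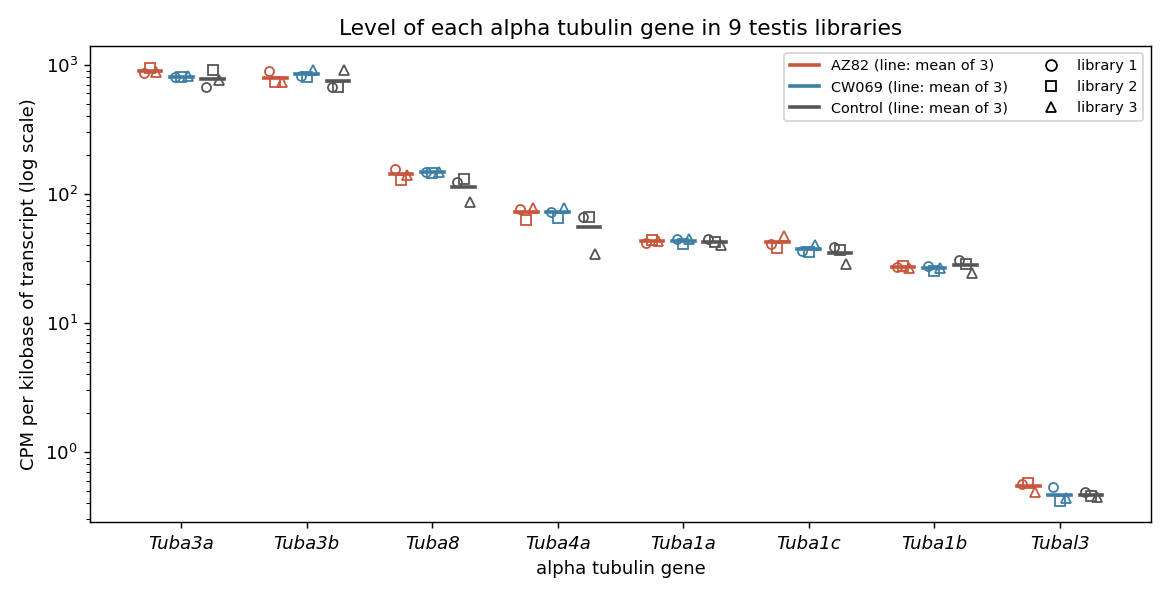
Level of each alpha tubulin gene in CPM per kilobase of transcript (log scale) in each of the 3 AZ82, 3 CW069 and 3 Control libraries, with the group mean as a line. Tuba3a and Tuba3b lie together at the top, from 668 upwards, Tuba8 and Tuba4a next, and Tubal3 lies at about 0.5.

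As shares of the alpha tubulin RNA per kilobase, genes that encode a terminal tyrosine made up 89.3 ± 0.865% after AZ82, 88.9 ± 0.220% after CW069 and 90.5 ± 2.71% in Control (SD, n = 3 each). Tuba4a, without the encoded tyrosine, held 3.61 ± 0.426% after AZ82, 3.63 ± 0.188% after CW069 and 3.11 ± 1.15% in Control. Genes with a terminal phenylalanine, nearly all of it Tuba8, held 7.05 ± 0.498%, 7.44 ± 0.226% and 6.36 ± 1.56% in AZ82, CW069 and Control. Reads lost where genes share sequence are not allowed for, and could set the tyrosine share too low. The wide spread of Control came from Control 3, where Tuba4a held 1.81% and Tuba8 4.57%, the lowest of the 9 libraries for each gene.

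Tuba3a and Tuba3b encode the same protein, but their balance varied between libraries. Tuba3a had 1299.6, 1437 and 1316 CPM in AZ82 1 to 3, 1217, 1219 and 1228 CPM in CW069 1 to 3, and 1009, 1368 and 1155 CPM in Control 1 to 3. The CW069 libraries lay close together, inside the range of Control, while those of AZ82 overlapped the upper part of Control. Tuba3b had 1601, 1308 and 1302 CPM in AZ82 1 to 3, 1451, 1418 and 1621 CPM in CW069 1 to 3, and 1200.4, 1185 and 1617 CPM in Control 1 to 3. Here 1 library of each group stood above the others, AZ82 1, CW069 3 and Control 3. The library highest in Tuba3a was another one in AZ82 and Control, AZ82 2 and Control 2, but in the CW069 group CW069 3 was the highest in both genes.

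Of the counts of the pair, Tuba3a held 44.8%, 52.3% and 50.3% in AZ82 1 to 3, 45.6%, 46.2% and 43.1% in CW069 1 to 3, and 45.7%, 53.6% and 41.7% in Control 1 to 3. The exact 95% binomial intervals cover counting error only, and not reads lost or misplaced between these copies. They were narrow, for example 53.1 to 54.1% in Control 2 and 41.2 to 42.1% in Control 3. Libraries of 1 group thus differed by more than counting error. The share averaged 49.1 ± 3.90% after AZ82, 45.0 ± 1.66% after CW069 and 47.0 ± 6.06% in Control (SD, n = 3 each), and all 3 groups overlapped. Summed, the pair had 2755 ± 142 CPM after AZ82, 2718 ± 114 CPM after CW069 and 2512 ± 283 CPM in Control.

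**Figure D2:**
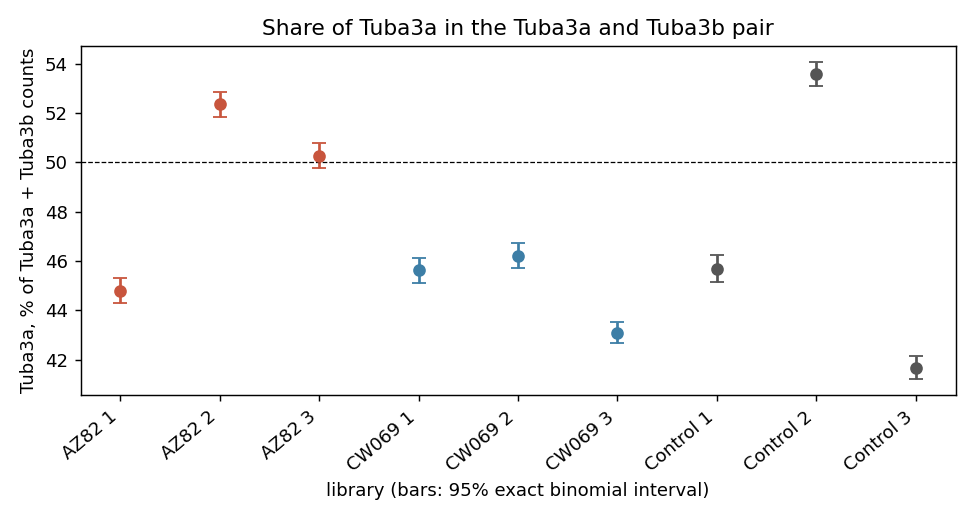
Tuba3a as a percentage of the Tuba3a and Tuba3b counts in each library (points) with the exact 95% binomial interval (bars); the dashed line marks equal counts. AZ82 2 and Control 2 lie above 50%, the interval of AZ82 3 crosses it and the other 6 libraries lie below it, with 41.7% in Control 3 and 53.6% in Control 2 as the extremes.

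Control 3 departed from Control 1 and 2 in several members. Tuba4a had 97.2 CPM in it, and Control 1 and 2 had 188 and 187 CPM, so that Control 3 held 0.518 of their mean. Tuba8 was at 196 CPM against 281 and 293 CPM, and Tuba1c at 56.5 CPM against 77.2 and 73.3 CPM. Tuba3b went the other way, at 1617 CPM against 1200.4 and 1185 CPM, and Tuba3a lay between the other Control libraries. Departure was measured from the mean of the other Control libraries. Its median over the 8 members in Control 3 was 0.34 on the log2 scale without regard to sign, against 0.16 over all genes tested. In Control 1 it was 0.22 against 0.13, and in Control 2 0.19 against 0.13, but Control 3 is part of the reference there. Tuba4a, at 188 and 187 CPM in Control 1 and 2, departed by 0.40 and 0.39 in them. Tuba3a did differ between Control 1 and 2, at 1009 and 1368 CPM. The elongating spermatid markers given above moved with Tuba4a, Tuba8 and Tuba1c in Control 3, and their part in the results against Control was not tested.

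**Figure D3:**
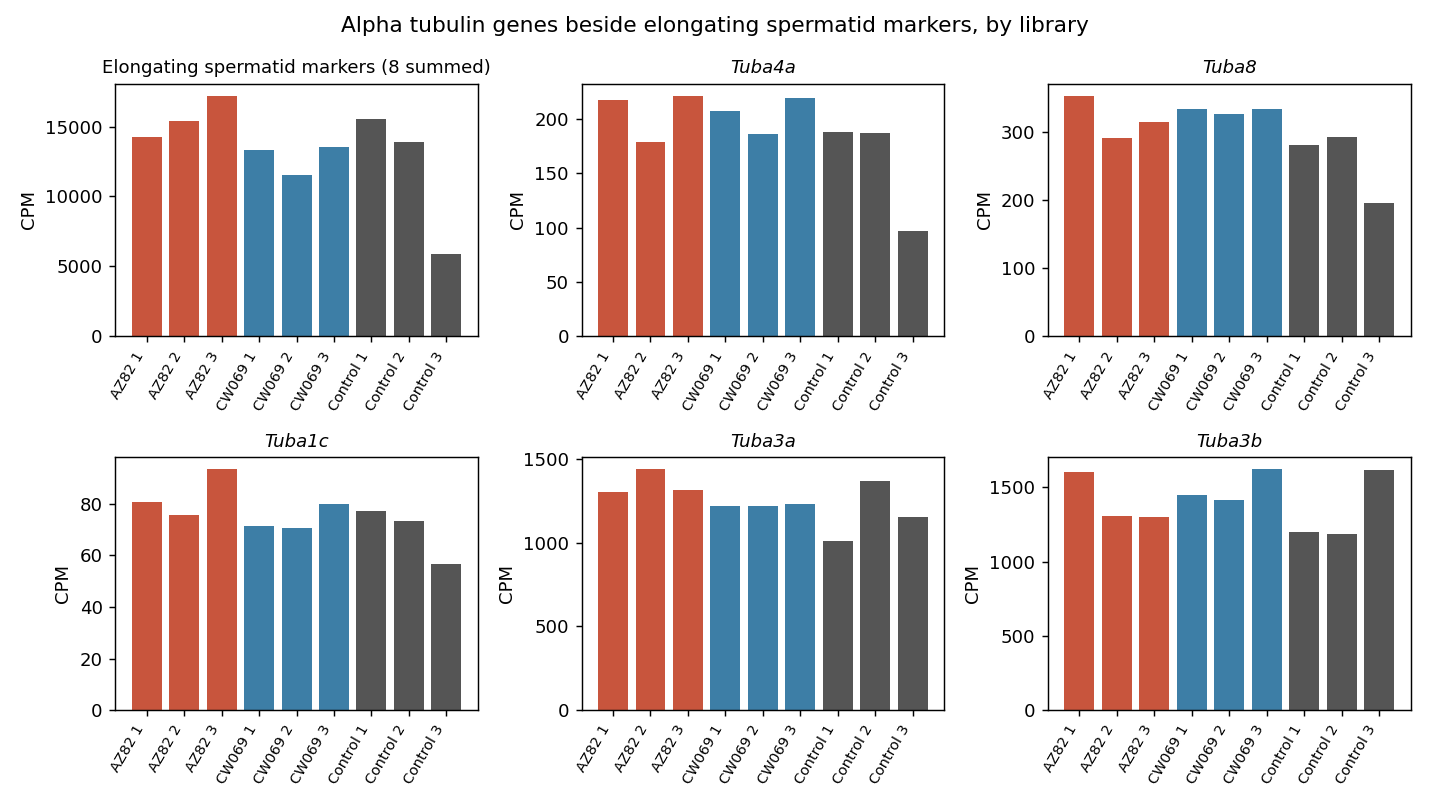
CPM of the 8 summed elongating spermatid markers and of Tuba4a, Tuba8, Tuba1c, Tuba3a and Tuba3b in each library (bars start at 0, coloured by group). Control 3, the last bar, is the lowest for the markers, Tuba4a, Tuba8 and Tuba1c, but not for Tuba3a, and for Tuba3b it is among the 3 highest at 1617 CPM.

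The members that varied most over the 9 libraries were Tuba4a, Tuba8 and Tuba1c, and for these the genes with the most similar profile were sought among 9534 genes. Likeness was the mean absolute difference of log2 levels, each gene centred on its own mean. For Tuba4a they were Dscaml1, Sppl2c and Fam71e1, at 0.06 to 0.07 against a median of 0.24 over all candidates, and in Control 3 they lay at -0.89, -0.83 and -0.81 from their own means, beside -0.91 for Tuba4a. For Tuba8 they were Stpg3, Fhdc1 and Irgc1, at 0.05 against a median of 0.19, and for Tuba1c Col20a1, Actn4 and Socs7, at 0.04 against 0.16. The genes were picked for closeness over all 9 libraries, Control 3 among them, so their closeness in Control 3 follows from the choice. These are descriptions over 9 libraries with no test.

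AZ82 against Control asks how the family differed after the first inhibitor. No member was called: 7 of 8 had a higher mean after AZ82, but 0 of 8 passed an edgeR adjusted p under 0.05, as 0% of all genes tested did. At an unadjusted p under 0.05 there were 2 of 8 members, both higher, beside 8.84% of all genes, and DESeq2 and limma-voom called 0 members. Groups failed to overlap in 0 of 8 members, beside 15.3% of all genes. The median log2 fold change of the 8 was 0.21, against -0.0010 over all genes tested.

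Tuba8 had the smallest p. It stood at 354, 291 and 315 CPM in AZ82 1 to 3, against 281, 293 and 196 CPM in Control 1 to 3. AZ82 1 and 3 were above every Control library, AZ82 2 was not. The log2 fold change was 0.32 ± 0.13 (SE; 95% interval 0.02 to 0.62; edgeR adjusted p = 0.554), and 0.15 without Control 3. Tuba1c, at 80.9, 75.8 and 93.4 CPM in AZ82 1 to 3 against 77.2, 73.3 and 56.5 CPM in Control 1 to 3, had 0.27 ± 0.12 (edgeR adjusted p = 0.561), and 0.14 without Control 3. Its values overlapped through AZ82 2. Tuba1a, Tuba1b and Tuba1c, their counts added into 1 gene, had 0.10 ± 0.08 (95% interval -0.09 to 0.28, edgeR adjusted p = 0.715). Adding the counts removes the split among these genes, but does not recover reads lost in counting or placed in predicted genes.

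Tuba4a was at 217, 179 and 222 CPM in AZ82 1 to 3, against 188, 187 and 97.2 CPM in Control 1 to 3. Its Control values set 1 library far below the others. It had the largest fold change of the 8 members, with the widest error of those above 10 CPM: 0.39 ± 0.21 on the log2 scale (95% interval -0.07 to 0.85; edgeR adjusted p = 0.600). Without Control 3 it was 0.13 ± 0.10. Tuba3a had 0.20 ± 0.10 (edgeR adjusted p = 0.587), but 0.10 without Control 1 and 0.32 without Control 2, and Tuba3b 0.07 ± 0.13. The direction of Tuba3b turned with the libraries: it was 0.23 without Control 3, 0.0036 without Control 1, -0.0092 without Control 2 and -0.03 without AZ82 1. Tuba3a and Tuba3b counted as 1 gene had 0.13 ± 0.09 (95% interval -0.07 to 0.33).

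Tuba1a and Tuba1b lay near 0, unlike Tuba1c above. Tuba1a was at 75.4, 78.9 and 78.4 CPM in AZ82 1 to 3, against 80.8, 77.0 and 71.9 CPM in Control 1 to 3, a log2 fold change of 0.02 ± 0.07 (95% interval -0.13 to 0.17), whose upper bound is 1.12-fold. Tuba1b, at 47.4, 47.9 and 46.3 CPM against 53.8, 49.9 and 42.8 CPM, had -0.05 ± 0.08. Tubal3 had 24, 25 and 21 counts in AZ82 1 to 3 and 22, 22 and 21 counts in Control 1 to 3, too few to show any but a large difference (95% interval -0.25 to 0.69 on the log2 scale).

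The second inhibitor, CW069, was set against the same Control libraries, at another dose. Again no member was called, with 6 of 8 members above 0 and a median log2 fold change of 0.08, against -0.0038 over all genes tested. edgeR passed 0 of 8 members at an adjusted p under 0.05, as it did 0% of all genes; at an unadjusted p under 0.05 there was 1 of 8, beside 7.34%; and DESeq2 and limma-voom called 0 members. Groups did not overlap in 1 of 8 members, beside 13.4% of all genes.

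That gene was Tuba8, with 334, 327 and 334 CPM in the CW069 libraries 1 to 3 and with 281, 293 and 196 CPM in libraries 1 to 3 of Control. Every CW069 library exceeded every Control library. Its log2 fold change was 0.37 ± 0.13 (SE; 95% interval 0.08 to 0.67; edgeR adjusted p = 0.621), and 0.21 ± 0.08 without Control 3, again not called (edgeR adjusted p = 0.488). Over all its alternatives the adjusted p of Tuba8 ran from 0.314 to 0.817 for CW069, and from 0.351 to 0.829 for AZ82, from the same Control libraries.

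Tuba4a was at 207, 186 and 219 CPM in CW069 1 to 3, so that CW069 2 lay just under Control 1 and 2 at 188 and 187 CPM. It had a log2 fold change of 0.38 ± 0.21 (95% interval -0.08 to 0.83; edgeR adjusted p = 0.707), and 0.12 ± 0.10 without Control 3. Tuba3b had 0.17 ± 0.13 (edgeR adjusted p = 0.774), but 0.33 without Control 3, 0.10 without Control 1, 0.09 without Control 2 and 0.11 without CW069 3. Tuba3a had 0.05 ± 0.10, and -0.05 without Control 1. As 1 gene, the pair had 0.11 ± 0.09 (95% interval -0.08 to 0.31).

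Tuba1a, at 81.0, 73.6 and 80.4 CPM in CW069 1 to 3, had 0.03 ± 0.07 on the log2 scale, and Tuba1b, at 48.3, 44.3 and 46.9 CPM, had -0.07 ± 0.08. Tuba1c, at 71.4, 70.5 and 79.8 CPM, had 0.10 ± 0.12, and -0.02 without Control 3. Tubal3 had 24, 19 and 24 counts and a log2 fold change of -0.0084 ± 0.22. None of these 4 genes separated from Control, and the 3 Tuba1 genes counted as 1 had 0.03 ± 0.08 (95% interval -0.15 to 0.22). Leaving out Control 3 left 4 of the 8 members above 0 after CW069, where the median was 0.01. After AZ82 it left 6 of 8 and a median of 0.15. The share of all genes above 0 is not given for those fits.

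**Figure D4:**
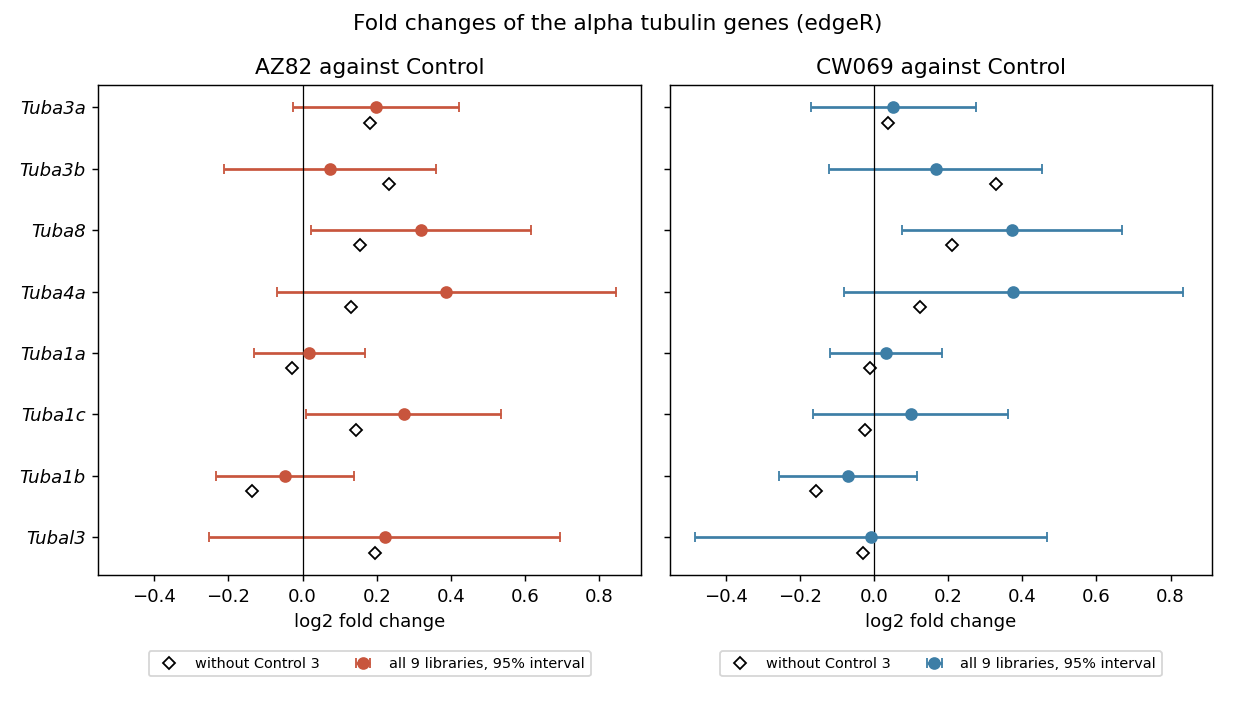
Log2 fold change of each member after AZ82 (left) and CW069 (right) against Control: filled points use all 9 libraries with their 95% interval, open diamonds leave out Control 3. Tuba4a and Tuba8 lie farthest to the right, at 0.32 to 0.39, and their diamonds at 0.12 to 0.21; the diamonds of Tuba3b lie to the right of its points, at 0.23 and 0.33.

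CW069 against AZ82 sets groups side by side that differ in compound and in dose, 50 µM and 1 µM. edgeR passed 0 of 8 members at an adjusted p under 0.05, as it did 0% of all genes, and 0 of 8 had an unadjusted p under 0.05, beside 4.97%. DESeq2 and limma-voom called 0 members. Groups failed to overlap in 1 of 8 members, beside 11.3% of all genes. It was Tuba3a, at 1217 to 1228 CPM after CW069 and 1299.6 to 1437 CPM after AZ82, with a log2 fold change of -0.15 ± 0.10 (95% interval -0.37 to 0.08; edgeR adjusted p = 0.999). Tuba8, at 332 ± 4.23 CPM after CW069 and 320.3 ± 31.6 CPM after AZ82, had a log2 fold change of 0.05 (95% interval -0.24 to 0.35), and Tuba4a one of -0.01 (95% interval -0.47 to 0.44). Tuba1c had the smallest p of the 8, with -0.17 (95% interval -0.44 to 0.09; edgeR adjusted p = 0.999), and Tubal3 the largest fold change, with -0.23 (95% interval -0.70 to 0.24). Elongating spermatid markers summed to 11569 to 13545 CPM after CW069 and 14236 to 17209 CPM after AZ82. Summed markers of Leydig cells and striated muscle were also lower after CW069 without overlap, and those of peritubular myoid and red blood cells higher. The part of these markers in this comparison was not tested.

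Summed over the 8 genes, alpha tubulin reached 3678, 3420.2 and 3375 CPM in AZ82 1 to 3, 3413, 3339 and 3611 CPM in CW069 1 to 3, and 2892, 3235 and 3237 CPM in Control 1 to 3. Every library of either inhibitor lay above every Control library on this scale. The order rests on the TMM scaling: as a plain share of all counts, the sum was 0.359%, 0.333% and 0.328% in AZ82 1 to 3, 0.340%, 0.341% and 0.351% in CW069 1 to 3, and 0.289%, 0.325% and 0.351% in Control 1 to 3, and the groups overlapped through Control 3. Of single genes tested, 15.3% did not overlap between AZ82 and Control, and 13.4% between CW069 and Control. Tuba3a and Tuba3b held 79.3% of the counts of the members on average. Summed in CPM, this pair alone overlapped between the groups. Control 3 had 2772 CPM, beside 2618 to 2901 CPM after AZ82 and 2637 to 2848 CPM after CW069. The beta tubulin genes summed to 1643 ± 67.5 CPM after AZ82, 1548 ± 72.1 CPM after CW069 and 1499.8 ± 78.4 CPM in Control (SD, n = 3 each).

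Genes that fold, modify and partner alpha tubulin were read from 4 lists. The first held 22 chaperone genes of the prefoldin, CCT and tubulin cofactor families, which fold tubulin and join it to its partner. Of these, 0 were called in any comparison. At an unadjusted p under 0.05 there were 0 after AZ82, beside 8.84% of all genes tested, and 0 after CW069, beside 7.34%. The median log2 fold change of the 22 was 0.02 after AZ82 and -0.0051 after CW069. The smallest p belonged to the prefoldin genes Pfdn5 (0.19 ± 0.09) and Vbp1 (-0.26 ± 0.14) after AZ82, and to Vbp1 (-0.24 ± 0.14) and Pfdn6 (0.10 ± 0.07) after CW069. For CW069 against AZ82, 0 of 22 had an unadjusted p under 0.05, beside 4.97% of all genes. The smallest p there belonged to Tbca, a tubulin cofactor (0.10 ± 0.08), and Pfdn6 (0.07 ± 0.07).

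A list of 9 genes held enzymes of alpha tubulin acetylation and of the terminal tyrosine, the vasohibin partner Svbp, and Ttc5, a factor of tubulin mRNA autoregulation and no such enzyme. Of these, 8 were tested, Matcap1 not being in the table under that symbol. edgeR called 0 of 8 in each comparison, as it did 0% of all genes. An unadjusted p under 0.05 was reached by 2 after AZ82, beside 8.84% of all genes, and by 1 after CW069, beside 7.34%. Between the inhibitors it was reached by 1, beside 4.97%. Without Control 3 the count at that threshold was 0 after AZ82 and 1 after CW069, with no share of all genes given for those fits. The median log2 fold change was then 0.06 after AZ82, against 0.03 with all libraries, and 0.05 after CW069, against 0.14. Atat1, which acetylates alpha tubulin inside the microtubule, averaged 62.4 ± 5.57 CPM after AZ82, 64.4 ± 12.1 CPM after CW069 and 51.3 ± 3.03 CPM in Control, with log2 fold changes of 0.28 ± 0.12 and 0.33 ± 0.12 (edgeR adjusted p = 0.561 and 0.642). Svbp, the partner of the tyrosine-removing vasohibins, had 0.23 ± 0.09 after AZ82 (edgeR adjusted p = 0.554). Vash2, such a vasohibin, averaged 165 ± 4.13 CPM after AZ82, 172 ± 15.4 CPM after CW069 and 156 ± 18.7 CPM in Control, while Ttl, the ligase that puts the tyrosine back, averaged 1.85 to 2.14 CPM in the groups. The deacetylase gene Sirt2 had 0.35 ± 0.21 after CW069 against Control and 0.45 ± 0.21 against AZ82, and Vash1, the other vasohibin gene, had -0.40 ± 0.17 for CW069 against AZ82.

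A list of 21 genes held members of the tubulin glutamylase, glycylase and deglutamylase families, and the complex subunits Tpgs1 and Tpgs2. After AZ82, 20 had a log2 fold change above 0, where 49.7% of all genes tested did. After CW069 it was also 20, where 49.0% did. Both counts rest on the same Control libraries. edgeR called 0 in each case. An unadjusted p under 0.05 was reached by 4 after AZ82, beside 8.84% of all genes, and by 3 after CW069, beside 7.34%. The medians were 0.11 and 0.11. Without Control 3, 19 lay above 0 after AZ82, with 2 at an unadjusted p under 0.05, and 16 after CW069, with 3. Shares of all genes are not given for those fits, so these counts have no background beside them. Ttll13, a polyglutamylase, averaged 661 ± 8.48 CPM after AZ82, 649.9 ± 18.3 CPM after CW069 and 571 ± 46.9 CPM in Control, with 0.21 ± 0.07 and 0.19 ± 0.07 (edgeR adjusted p = 0.554 and 0.646). Ttll3, a glycylase, had 0.24 ± 0.09 after AZ82 and 0.03 ± 0.09 after CW069. Agbl1, a deglutamylase of low level here, had 0.48 ± 0.19 after CW069. Between the inhibitors, the smallest p of the list belonged to the glutamylase gene Ttll1 at -0.49 ± 0.16 and to Ttll3 at -0.22 ± 0.09 (edgeR adjusted p = 0.958 and 0.977).

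Among 10 other tubulins tested of 12, 8 lay above 0 after AZ82, where 49.7% of all genes tested did. After CW069 it was 7, where 49.0% did. edgeR called 0 in both cases, as it did 0% of all genes. An unadjusted p under 0.05 was reached by 0 after AZ82, beside 8.84% of all genes, and by 3 after CW069, beside 7.34%. Without Control 3 there was 1 at that threshold after AZ82 and 1 after CW069, again with no share of all genes given. Tubb4b, a beta tubulin of cilia and flagella, averaged 1458 ± 59.6 CPM after AZ82, 1383 ± 88.2 CPM after CW069 and 1334 ± 59.2 CPM in Control, and its log2 fold changes were 0.13 ± 0.07 and 0.05 ± 0.07. Tubg2, a gamma tubulin, had 0.90 ± 0.26 after CW069 (edgeR adjusted p = 0.524) at 2.55 ± 0.736 CPM against 1.35 ± 0.0967 CPM in Control, and the beta tubulin gene Tubb2a 0.45 ± 0.18. Tubb2b had 0.82 ± 0.51 after AZ82 at under 1 CPM. Tubb6, another beta tubulin, averaged 29.95 ± 14.3 CPM after CW069 and 54.0 ± 6.05 CPM after AZ82 (edgeR adjusted p = 0.977).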

How the data were processed

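Testis RNA of 9 libraries was profiled. The authors deposited raw counts, 1 column a library, which are whole numbers; per the submitters' processing notes, Trimmomatic, HISAT2 (build GRCm39) and HTSeq were used, with settings and strand mode not given in the sources used here. Each library's own file matched its column in 19991 genes. After filterByExpr and TMM scaling, a model with group means was fitted to the 9 libraries together (edgeR 4.0.16, R 4.3.3). The quasi-likelihood F test is two-sided, and p-values were adjusted over 15834 genes by Benjamini-Hochberg. CPM per kilobase divides by the exon length in GENCODE M21. The members and lists were chosen with earlier results of these data known, so the exact test planned for the sum over members is not given. All 8 members are named; of other genes, those with the most similar profile to the 3 most variable members above 10 CPM, and per list and comparison those with the smallest p. Other list genes and Control 3 were singled out after their values were seen. The pipeline was tested on simulated data. The coding end of 1 member is not reported here. Alternatives included DESeq2 1.42.0 and limma-voom (limma 3.58.1).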

Additional observations from a re-analysis of the deposited data

How the results depend on the processing

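No alternative called a member in any comparison. The number of genes called of all tested was 0 in each comparison and changed with the tool and scaling. After AZ82 it was 1 with total library size alone, 6 with DESeq2 and 1 with limma-voom; after CW069 it was 1 with total library size alone and 28 with DESeq2; and for CW069 against AZ82 it was 13 with DESeq2 and 8 with the compared groups alone. With a library left out it ran from 0 to 4 after AZ82 (4 without Control 2), from 0 to 7 after CW069 (7 without Control 2, 5 without CW069 3, 1 without Control 1) and from 0 to 4 between the inhibitors (4 without AZ82 2, 4 without CW069 3, 1 without Control 1).

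Values near 0 changed sign. With total library size alone, the log2 fold change was -0.059 for Tuba1a and -0.014 for Tuba3b after AZ82, -0.013 for Tuba1a after CW069, and 0.0081 for Tuba1b and 0.018 for Tuba4a between the inhibitors, where the difference of summed CPM was 38.0. For Tubal3 after CW069 it was 0.00059 with RLE factors and 0.00059 with DESeq2. With a library left out, members that changed sign ran as follows. After AZ82, Tuba1a ran from -0.028 to 0.060, Tuba1b from -0.14 to 0.027 and Tuba3b from -0.031 to 0.23. After CW069, Tuba1a ran from -0.0097 to 0.074, Tuba1b from -0.16 to 0.0038, Tuba1c from -0.024 to 0.19, Tuba3a from -0.047 to 0.17 and Tubal3 from -0.11 to 0.053. Between the inhibitors, Tuba1a ran from -0.0061 to 0.060, Tuba1b from -0.046 to 0.013, Tuba4a from -0.10 to 0.054 and Tuba8 from -0.012 to 0.13, and the difference of summed CPM from -115 to 56.6. The cause was not tested.

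Same-numbered libraries did not deviate together (correlations of -0.21 to 0.058 over all genes), and the labels give no pairing. No library had its highest correlation with a library of the same number. With the replicate number as a block, 0 members and 0 genes were called. Counting Tuba1a to Tuba1c and Tuba3a with Tuba3b as single genes called 0 as well. Groups of 3 libraries, the low counts of Tubal3 and the reads shared among the Tuba1 genes limit what can be seen. The 4 gene lists without Control 3 were added after seeing the data.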
